A study of Homo sapiens with 2 samples.

Results

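The apolipoprotein L genes examined here are APOL1, APOL2, APOL3, APOL4 and APOL6, 5 of the 36601 genes in the count matrices, taken by their gene symbols. They were measured by single-cell RNA sequencing in colon organoids, three-dimensional cultures of gut-like tissue, grown from 1383D6, an established line of human induced pluripotent stem cells. A first culture received TNF-α, IFN-γ and IL-1β together for 8 days (3CK) and the other received no cytokine (CNT), and the series title names ulcerative colitis as the disease modelled. Both cultures went through the same differentiation from 1 cell line, which included Activin A, FGF2, EGF, forskolin and the DNA methylation inhibitor 5-Aza-2'-Deoxycytidine. About 8300 cells were loaded per library. Each group is 1 library, so there was no replicate check and no test across samples, and the intervals given, of 95%, describe counting error and nothing else.

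The apolipoprotein L proteins are paralogs encoded side by side on one chromosome. APOL1 is the secreted member: it travels in blood on high-density lipoprotein particles and kills African trypanosomes by forming pores in their membranes. The other members lack a secretion signal and stay in the cell, where several of them act on membranes. Interferon-γ and TNF are known inducers of several members, and in epithelial cells APOL3 is known to damage the membranes of bacteria that reach the cytosol, acting with the guanylate-binding protein GBP1.

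In the GRCh38 assembly (GENCODE v44), APOL1 lies at chr22:36253071-36267530 on the plus strand and APOL2 at chr22:36226209-36239954 on the minus strand. APOL4 at chr22:36189124-36204840 and APOL3 at chr22:36140329-36166177 follow, both on the minus strand, so that these 4 genes share a block of 127 kb. APOL6 stands apart at chr22:35648446-35668404 on the plus strand, 472 kb from APOL3, with the splicing factor gene RBFOX2 and the sparsely detected APOL5 between them. The 3′ ends of the paralogs, which this chemistry reads, had few exact 50-base windows in common, and likeness with mismatches was not measured. The share of 50-base windows in the last 500 bases of their coding transcripts that also occurred in another member was at most 2.61% (APOL1) and was 0% for APOL4 and APOL6. The libraries count unique molecular identifiers (UMIs), 1 per captured transcript molecule, so levels were not divided by gene length. A level is given as CPM, the UMIs of a gene scaled to a common total of all UMIs, and differences in capture between genes were not tested.

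The CNT matrix held 3257 barcodes with 105314879 UMIs while 1641 barcodes with 94887438 UMIs were in that of 3CK, and no barcode was in both. After filtering, 2487 CNT and 1398 3CK barcodes remained, with a median of 28895 and 62746 UMIs, and 3 UMIs correspond to 0.0295 and 0.0327 CPM. Epithelial cells were barcodes with at least 10000 UMIs and at least 2 EPCAM UMIs per 10000, and numbered 1011 in CNT and 730 in 3CK. Mesenchymal cells had at least 5 UMIs of COL1A1, COL1A2 and COL3A1 together and under 1 of EPCAM per 10000, and numbered 311 and 106. A further 135 CNT and 159 3CK barcodes of that depth met neither rule. The labels were checked against other markers. The claudin CLDN7 stood at 386 CPM (CNT) and 594 CPM (3CK) in the epithelial cells and at 8.29 and 24.5 CPM in the mesenchymal cells, but the keratin KRT18 was abundant in both classes (4320 and 10974 CPM against 4953 and 6962 CPM). The epithelium carried high levels of TTR, a plasma carrier protein made in liver, which reached 65338 CPM there in CNT against 19487 CPM with cytokines. The matrix proteoglycan genes DCN and LUM, outside the class rule, stood at 1219 and 1209 CPM and at 1295 and 541 CPM in mesenchymal cells, and in epithelial cells at 47.0 and 7.79 CPM and at 127 and 26.0 CPM. COL1A1, which the rule uses, stood at 3030 and 903 CPM in the mesenchymal class.

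All 5 members were more abundant in the cytokine-treated library. Over all kept cells, the 5 genes together went from 22.6 CPM in CNT (2291 UMIs) to 471 CPM in 3CK (43277 UMIs). Each member was at least 2-fold higher in 3CK, where 6.97% of the 17523 genes with at least 1 CPM passed that fold in the same direction. APOL4 reached that minimum only in 3CK, so its pass of the fold was set by the library where it was high. The median log2 ratio of 3CK over CNT was 4.10 for the members and -0.06 for all genes, and the middle 95% of all genes ended at 2.25, below the smallest member ratio of 3.36.

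APOL1, the secreted member, was counted 381 times in CNT and 17552 times in 3CK. Its level was 3.75 CPM (3.38 to 4.15) in CNT and 191 CPM (188 to 194) in 3CK, a 50.9-fold ratio (log2 5.67, 5.52 to 5.82). In CNT it was the third of the 5 by level, and in 3CK it was the first. Its ratio was number 45 from the largest among the 17523 genes.

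APOL2, an intracellular member that sits head to head with APOL1 on the chromosome, was the most abundant of the 5 in CNT at 9.51 CPM (8.92 to 10.1). In 3CK it stood at 127 CPM (125 to 130), a 13.4-fold ratio (log2 3.74, 3.65 to 3.84). The 2 adjacent genes thus differed in size of response although both were higher in 3CK. APOL6, an intracellular member known to promote apoptosis when overexpressed, stood at 8.08 CPM (7.54 to 8.65) in CNT and 138 CPM (136 to 141) in 3CK, a 17.1-fold ratio (log2 4.10, 3.99 to 4.20). The level of APOL6 was below that of APOL2 in CNT and above it in 3CK, and the intervals did not overlap in either library.

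APOL3, the member with known activity against cytosolic bacteria, was the second lowest of the 5 in both libraries. It stood at 1.18 CPM (0.979 to 1.41) in CNT and 12.1 CPM (11.4 to 12.8) in 3CK, a 10.3-fold ratio (log2 3.36, 3.09 to 3.64). APOL4, a little-studied member, was counted only 3 times in CNT and 224 times in 3CK. This corresponds to 0.0295 CPM (0.00609 to 0.0863) and 2.44 CPM (2.13 to 2.78), and the ratio of 82.6 has a counting interval from 27.9 to 403. APOL4 had the lowest level of the 5 in both libraries, and with 3 CNT UMIs the place of its ratio against that of APOL1 was not resolved. By rank among all genes, APOL4 was number 28, APOL6 number 116, APOL2 number 149 and APOL3 number 202. APOL4 entered this ranking only through its 3CK level, as it was under 1 CPM in CNT.

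Of the relatives outside the set of 5, APOLD1 did not share this pattern and APOL5 could not be judged. APOL5, the remaining gene of the cluster, had 1 UMI in each library, too few for a ratio. APOLD1, a distant relative known from endothelial cells, stood at 3.31 CPM (CNT) and 2.46 CPM (3CK), a log2 ratio of -0.43 (-0.68 to -0.18).

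**Figure D1:**
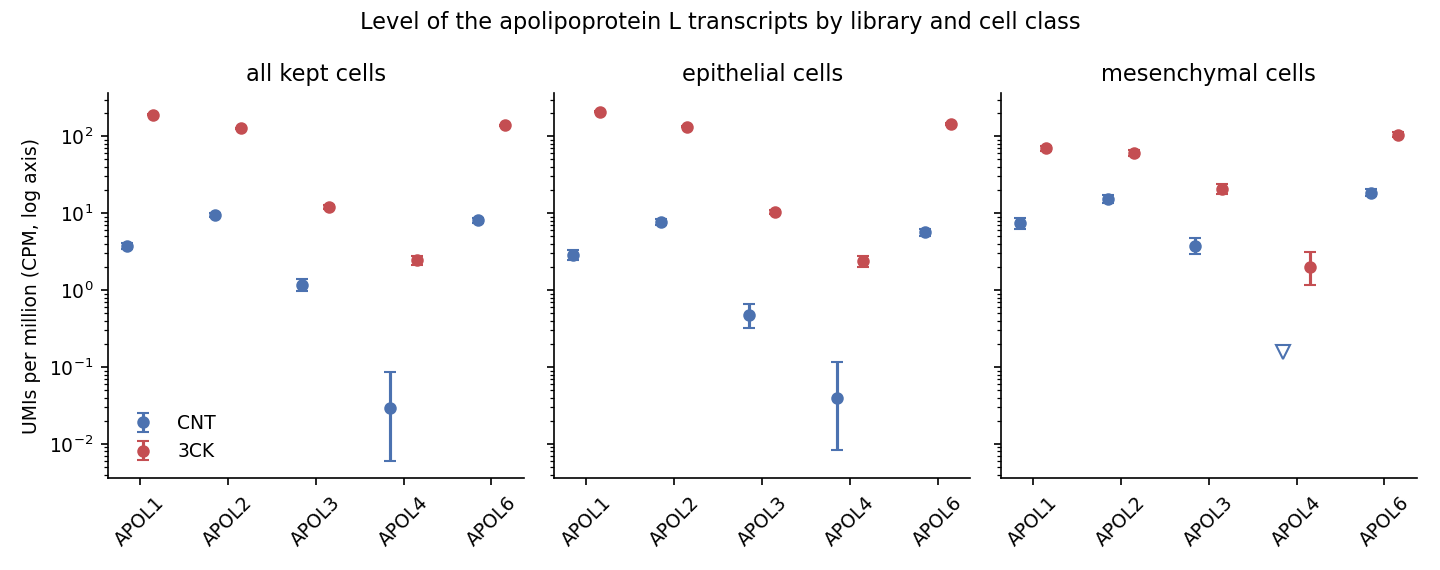
Level of each member in CPM on a log axis, in all kept cells, epithelial cells and mesenchymal cells of CNT and 3CK, with 95% Poisson intervals for counting error. Triangles mark the level of 3 UMIs where no UMI was counted, as for APOL4 in CNT mesenchymal cells. The 3CK points lie above the CNT points for every member and in each group of cells.

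The paralogs differed in the size of their ratio. Of the 10 pairs of members, 9 had a difference of log2 ratios whose interval left out 0. Among them, the pairs of APOL4 with APOL2, APOL3 and APOL6 rest on 3 CNT UMIs of APOL4, where such an interval is rough. The ratio of APOL1 exceeded that of APOL2 by 1.93 (1.75 to 2.10) and that of APOL6 by 1.58 (1.40 to 1.75) on the log2 scale. APOL2 minus APOL6 was smaller in size, at -0.35 (-0.49 to -0.21). APOL2 minus APOL3 was 0.38 (0.10 to 0.67) over all kept cells. This order turned with equal weight for each cell, where the log2 ratio was 3.58 for APOL2 and 4.06 for APOL3. Within the classes it turned too, at -0.34 (-0.84 to 0.17) in epithelial and -0.45 (-0.89 to -0.01) in mesenchymal cells. The epithelial interval held 0. The pair APOL1 minus APOL4 had a difference of -0.70 with an interval from -2.35 to 0.95, which the 3 CNT UMIs of APOL4 do not resolve.

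With these unequal ratios the makeup of the family's UMIs differed between the libraries. In CNT, APOL2 supplied 42.2% and APOL6 35.8% of the family UMIs, and APOL1 supplied 16.6%. In 3CK, APOL1 supplied 40.6%, APOL6 29.3% and APOL2 27.0%. APOL3 supplied 5.24% in CNT and 2.57% in 3CK, and APOL4 0.131% and 0.518%. In epithelial cells alone, APOL2 supplied 45.9% in CNT and 26.7% in 3CK, and APOL1 17.2% (15.1 to 19.4) and 41.9% (41.4 to 42.4).

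**Figure D2:**
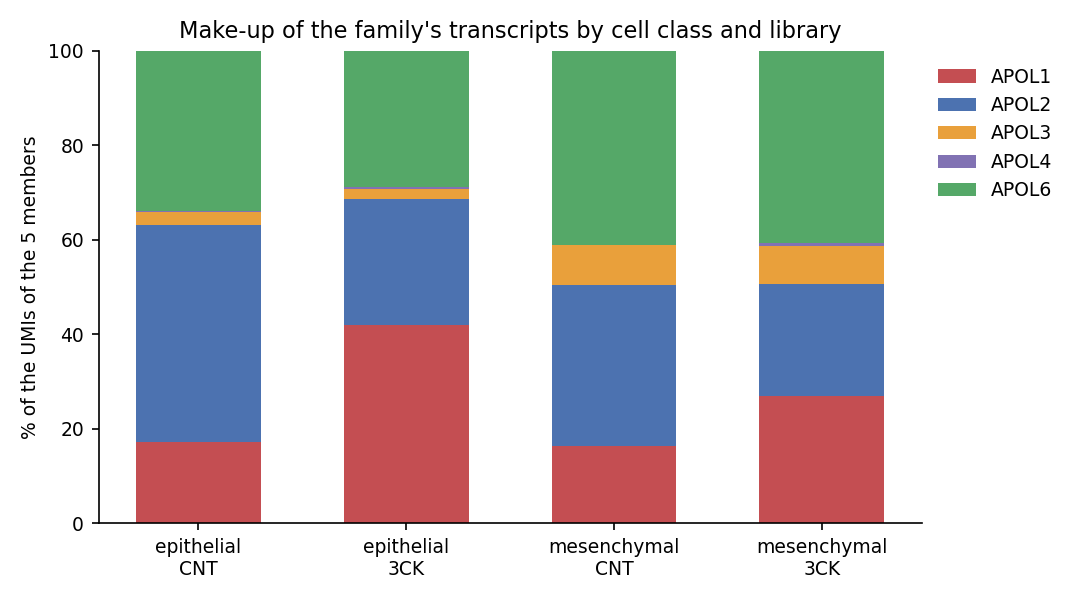
Share of each member in the UMIs of the 5 members, in percent, stacked for the epithelial and mesenchymal cells of CNT and 3CK. APOL1 takes 17.2% of the family UMIs in CNT epithelial cells and 41.9% in 3CK epithelial cells, and APOL6 takes 41.1% and 40.6% in the mesenchymal cells.

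In epithelial cells the family as a whole stood at 16.7 CPM (CNT) and 501 CPM (3CK). APOL1 stood at 2.87 CPM in CNT (214 UMIs) and 209.6 CPM in 3CK (14532 UMIs), a 73.2-fold ratio (log2 6.19, 5.998 to 6.39). APOL2 stood at 7.65 and 134 CPM (log2 ratio 4.13, 4.01 to 4.25). APOL6 stood at 5.64 and 144 CPM (log2 ratio 4.68, 4.54 to 4.82). APOL1 was thus the lowest of these 3 in CNT and the highest in 3CK.

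The less abundant members were also higher in the 3CK epithelium. APOL3 stood at 0.469 CPM in CNT (35 UMIs) and 10.4 CPM in 3CK (719 UMIs), a log2 ratio of 4.47 (3.98 to 5.00). APOL4 stood at 0.0402 CPM in CNT, where it had 3 UMIs, and 2.37 CPM in 3CK (164 UMIs), a log2 ratio of 5.88 (4.31 to 8.17). All 5 members were at least 2-fold higher in 3CK, beside 8.63% of the 16805 genes tested in these cells. APOL3 and APOL4 reached the minimum of 1 CPM only in 3CK. The median log2 ratio of the 5 members was 4.68, and that of all genes was 0.01. Of the 10 pairs of members, 5 had intervals of the difference without 0, among them APOL1 minus APOL2 at 2.06 (1.83 to 2.29). APOL2 minus APOL4, also among them, rests on the 3 CNT UMIs of APOL4.

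In mesenchymal cells the same members were higher in 3CK, by smaller ratios. APOL6 stood at 18.5 CPM in CNT (356 UMIs) and 105 CPM in 3CK (954 UMIs), a log2 ratio of 2.51 (2.33 to 2.69). APOL2 stood at 15.3 and 61.1 CPM (log2 ratio 2.00, 1.79 to 2.21). APOL1 stood at 7.36 CPM (142 UMIs) and 69.7 CPM (633 UMIs), a 9.47-fold ratio (log2 3.24, 2.98 to 3.52). APOL6 was the highest member in both libraries here, and its share of the family UMIs was 41.1% (37.8 to 44.5) in CNT and 40.6% (38.6 to 42.6) in 3CK.

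APOL3 stood at 3.78 CPM (73 UMIs) in CNT and 20.7 CPM (188 UMIs) in 3CK mesenchymal cells, a log2 ratio of 2.45 (2.05 to 2.86). APOL4 had no UMI in CNT and 18 in 3CK, at 1.98 CPM (1.17 to 3.13). This was at least 12.7-fold higher against a floor of 3 UMIs over the CNT cells of this class. That bound leaves out the counting error of the 18 UMIs. All 5 members were at least 2-fold higher in 3CK, beside 6.14% of the 17250 genes tested here, and APOL4 reached 1 CPM only in 3CK. The median log2 ratio of the 5 members was 2.51, and that of all genes was -0.20. APOL1 minus APOL2 was 1.24 (0.91 to 1.58), and 5 of the 6 pairs without APOL4 had intervals without 0, all but APOL3 minus APOL6 at -0.06 (-0.49 to 0.37). The sum of 8 leukocyte markers in these cells was 43.6 CPM in CNT and 120 CPM in 3CK, mostly TYROBP (27.5 and 87.7 CPM), with 3 and 4 of the 8 at 1 CPM or more. PTPRC, which defines leukocytes, stood at 0.518 and 3.63 CPM, and CD3E at 0.0518 and 0 CPM. The 8 endothelial markers summed to 91.0 and 72.3 CPM. The part of these markers in the ratios of the members was not tested.

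The ratio of 3CK over CNT was larger in epithelial than in mesenchymal cells for each of the 4 members that could be compared. The difference of the log2 ratios was 2.95 (2.62 to 3.28) for APOL1, 2.13 (1.89 to 2.37) for APOL2, 2.17 (1.95 to 2.40) for APOL6 and 2.02 (1.39 to 2.64) for APOL3. These intervals cover counting error, and the difference could not be tested across samples.

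**Figure D3:**
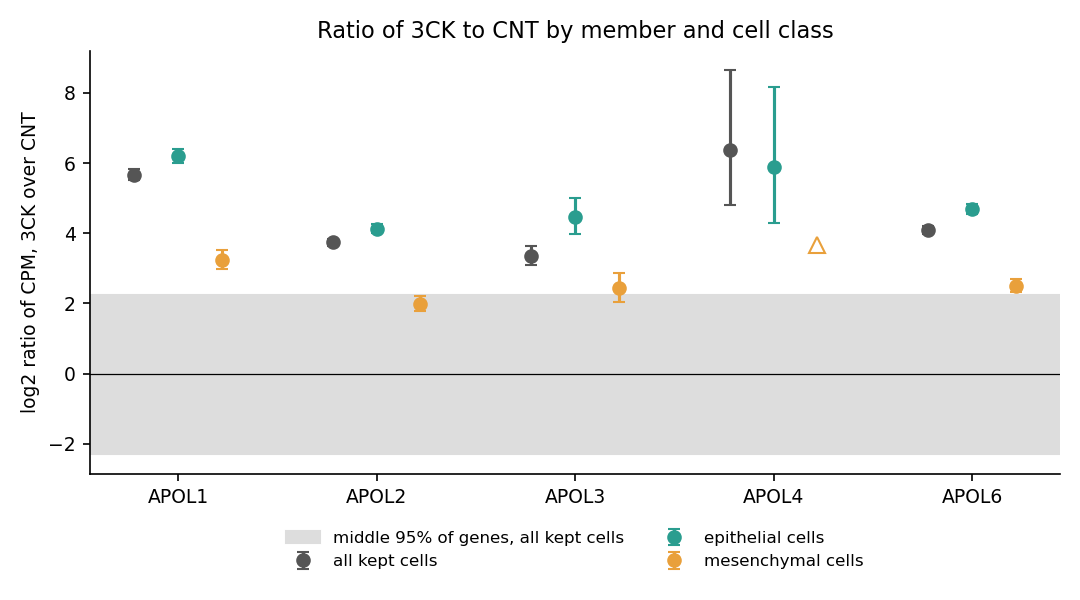
Log2 ratio of 3CK over CNT for each member in all kept cells, epithelial cells and mesenchymal cells, with 95% counting intervals. The grey band spans the middle 95% of all genes in all kept cells (-2.30 to 2.25), and the open triangle is the lower bound for APOL4 in mesenchymal cells. The epithelial points lie above the mesenchymal ones for APOL1, APOL2, APOL3 and APOL6.

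Within CNT, all 4 members with enough UMIs were higher in mesenchymal than in epithelial cells. The log2 ratio of mesenchymal over epithelial level was 3.01 (2.41 to 3.64) for APOL3, 1.71 (1.50 to 1.92) for APOL6, 1.36 (1.04 to 1.67) for APOL1 and 1.00 (0.79 to 1.21) for APOL2. APOL4, with 3 and 0 UMIs, gave no ratio. Beside these values, 26.5% of the 18004 genes tested in CNT were at least 2-fold higher in mesenchymal cells and 15.4% at least 2-fold higher in epithelial cells, and the median over all genes was 0.33. APOL2 lies just under 2-fold, so 3 of the 4 passed that fold. With TMM scaling APOL1 fell below it too (log2 0.96, 0.65 to 1.28).

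Within 3CK the order of the classes was the other way for APOL1, APOL2 and APOL6. APOL1 was 3.01-fold higher in epithelial cells (log2 of mesenchymal over epithelial -1.59, -1.71 to -1.47) and APOL2 was 2.19-fold higher there (-1.13, -1.26 to -1.01). APOL6 was 1.38-fold higher in epithelial cells (-0.46, -0.56 to -0.36). APOL3 kept its higher level in mesenchymal cells, by 2.00-fold (log2 1.00, 0.76 to 1.23). APOL4 had a log2 ratio of -0.26 with an interval from -1.05 to 0.45, so no order of the classes was resolved. Of the 17176 genes tested in 3CK, 19.1% were at least 2-fold higher in mesenchymal and 16.8% in epithelial cells, and the median was 0.07.

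The epithelium was not uniform, and its makeup differed between the libraries. After the data were seen, it was divided by TTR: 696 of the 1011 CNT cells but 151 of the 730 3CK cells had at least 300 TTR UMIs per 10000. In CNT, APOL1 stood at 1.39 CPM (1.09 to 1.74) in the TTR-high cells and 6.74 CPM (5.66 to 7.95) in the others. In 3CK it stood at 129 CPM (124 to 135) and 231 CPM (227 to 235). APOL2 stood at 5.90 and 12.2 CPM in CNT and at 86.6 and 146 CPM in 3CK. APOL6 stood at 4.51 and 8.58 CPM in CNT and at 97.9 and 157 CPM in 3CK. All 3 were lower in TTR-high cells in each library.

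The 3CK over CNT ratio kept its direction within each TTR range and moved in size. It was log2 6.54 for APOL1 in TTR-high and 5.10 in TTR-low cells, 3.88 and 3.58 for APOL2, and 4.44 and 4.19 for APOL6, against 6.19, 4.13 and 4.68 in the whole epithelium. The order of the classes did depend on the range. Against the TTR-low epithelium of CNT, the mesenchymal level of APOL1 gave a log2 ratio of 0.13 (-0.22 to 0.48), with an interval that held 0, while APOL3 stayed higher in mesenchymal cells at 2.20 (1.42 to 3.05) and APOL6 at 1.11 (0.84 to 1.37). Against the TTR-high epithelium of 3CK, APOL6 gave 0.10 (-0.02 to 0.22), and APOL1 (-0.89) and APOL2 (-0.50) remained higher in epithelial cells. The part of TTR-linked cell makeup in the class values was not tested further.

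Other groups of cells, set by markers, were small. The 45 CNT cells with at least 10 FABP2 and RBP2 UMIs per 10000, markers of absorptive enterocytes, carried 7.96 CPM of APOL1 (5.29 to 11.5), 9.95 CPM of APOL2 and 17.9 CPM of APOL6. APOL6 was thus the highest member in them, with an interval from 13.8 to 22.9 CPM, while APOL3 and APOL4 had no UMI. In 3CK only 6 cells met that rule, with 112 CPM of APOL1 and 141 CPM of APOL6. Cycling cells, with at least 4 MKI67 and TOP2A UMIs per 10000, numbered 37 in CNT and 22 in 3CK and carried 23.0 CPM and 193 CPM of APOL6. APOL1 stood at 6.22 and 133 CPM in them. These cells came from both classes, 26 of the 37 from the mesenchymal class in CNT and 10 of the 22 in 3CK. Barcodes under 10000 UMIs, which enter neither class, carried 4.83 CPM of APOL1 in CNT and 209.7 CPM in 3CK. Deep barcodes of neither class carried 2.78 and 175 CPM of APOL1, and 4.70 and 121 CPM of APOL6.

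The share of cells with a UMI was compared after each cell was thinned to 5000 UMIs, since the libraries differ in depth. No cell of either class was below that depth. In CNT epithelial cells, 0.791% had an APOL1 UMI, 3.56% an APOL2 UMI and 2.97% an APOL6 UMI. In 3CK epithelial cells these shares were 48.1% (44.4 to 51.8), 45.5% and 49.3%. Without thinning, at a median of 69704 and 94099.5 UMIs per cell, they were 8.90%, 30.9% and 23.4% in CNT, and 94.4%, 95.5% and 95.8% in 3CK. APOL3 was seen in 0.0989% and 4.52% of the thinned cells, and APOL4 in 0 of 1011 CNT cells, which by the limit of 3 counts of the total allows a share of cells with a UMI of up to 0.297%, and in 1.37% of 3CK cells. At least 1 member was detected in 7.42% of thinned CNT and 81.2% of thinned 3CK epithelial cells.

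For the 3 abundant members, the shares in mesenchymal cells were above those of the epithelium in CNT and below them in 3CK, not all beyond counting error. APOL1 was seen in 4.18% of thinned CNT and 27.4% (19.1 to 36.9) of thinned 3CK mesenchymal cells, APOL2 in 5.79% and 24.5%, and APOL6 in 7.72% and 39.6% (30.3 to 49.6). The interval of APOL6 in 3CK held the epithelial share of 49.3%, and that of APOL2 in CNT (3.47 to 8.99) held the epithelial 3.56%. APOL3 was seen in 3.22% and 5.66%. Without thinning, 28.0% and 92.5% of these cells had an APOL1 UMI. Free RNA can place UMIs in cells that do not express a gene. As a scale for it, the epithelial transcripts CLDN4 and TTR stood in 3CK at 209 and 19487 CPM in epithelial cells. They stood at 4.40 and 220.3 CPM in mesenchymal cells, against 209.6 and 69.7 CPM in the same classes for APOL1. The scale depended on the marker, as ELF3 stood at 103 and 34.2 CPM and KRT19 at 2061 and 620 CPM in these classes. The part of free RNA in the mesenchymal values was not tested.

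Several members were often seen in the same treated cell. With cells thinned to 10000 UMIs, 88.2% of CNT epithelial cells had a UMI of none of the 5 members, 10.6% of 1 and 0.989% of 2. In 3CK epithelial cells, 6.85% (5.13 to 8.93) had none, 18.8% had 1, 33.7% had 2, 34.2% had 3 and 6.16% had 4. Only 2 of the 730 cells had all 5. In 3CK mesenchymal cells, 18.9% had none, 34.0% had 1 and 26.4% had 2. The median family count per cell was 4 UMIs in 3CK epithelial and 2 UMIs in 3CK mesenchymal cells, and 0 in both classes of CNT.

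**Figure D4:**
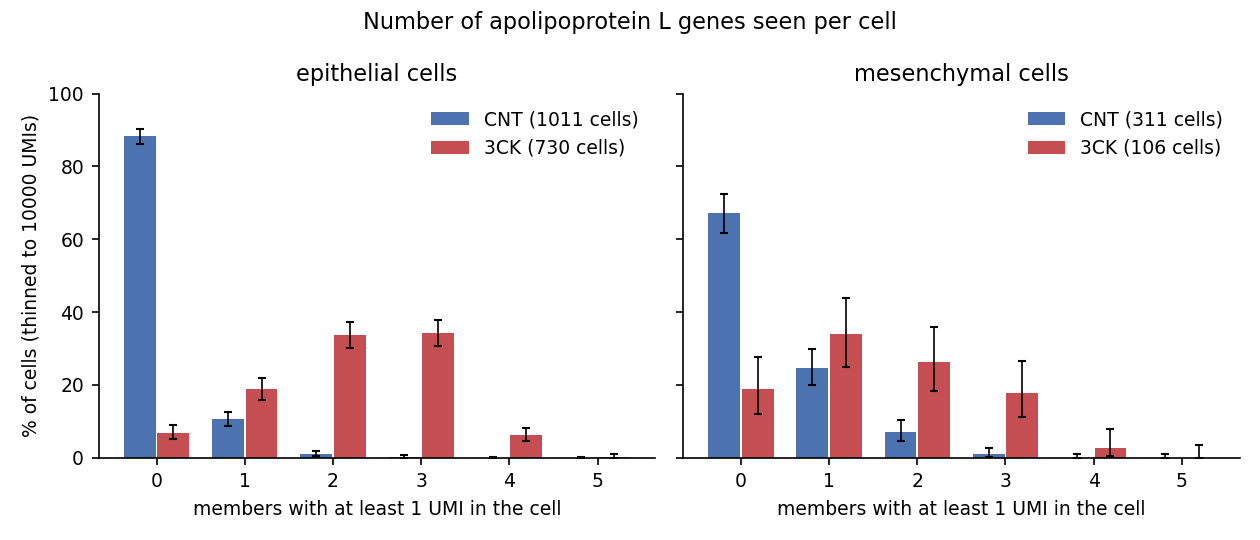
Share of cells, in percent, by the number of the 5 members with at least 1 UMI, in epithelial and mesenchymal cells of CNT and 3CK thinned to 10000 UMIs, with exact binomial 95% intervals. The CNT bars are highest at 0 members (88.2% and 67.2%), and the 3CK bars at 3 members in epithelial cells (34.2%) and at 1 in mesenchymal cells (34.0%).

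Of the 3 abundant members, APOL1 had the widest spread of levels per cell. In 3CK epithelial cells its unthinned level had a 10th percentile of 20.3 CPM, a median of 117 CPM and a 90th percentile of 511 CPM. APOL2 ran from 29.3 through 109 to 255 CPM and APOL6 from 35.7 through 126 to 303 CPM at the same percentiles. The medians of the 3 genes were thus close, while the upper tail of APOL1 was longer. In 3CK mesenchymal cells the medians were 58.5 CPM for APOL1, 47.7 CPM for APOL2, 17.1 CPM for APOL3 and 102 CPM for APOL6.

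Across the 730 3CK epithelial cells, the correlation of log counts between members was highest for the neighbours APOL1 and APOL2, with a Pearson r of 0.342. APOL2 and APOL6 gave 0.182 and APOL1 and APOL6 gave 0.178, and pairs with APOL3 or APOL4 gave 0.056 to 0.123. In the 106 3CK mesenchymal cells, APOL1 and APOL2 gave 0.395, APOL1 and APOL6 0.056 and APOL2 and APOL6 -0.014. These are descriptions across cells that share a library and its free RNA, and weak values in such sparse counts are no finding.

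Among the 5819 genes seen in at least 20% of the thinned 3CK epithelial cells, those most like APOL1 across cells were APOL2 (0.342), C15orf48 (0.339), RARRES1 (0.322), PDZK1IP1 (0.314) and CD47 (0.314). The median r of all genes with APOL1 was 0.00591, and the middle 95% of genes ended at 0.155. Those most like APOL2 were APOL1, PARP14 (0.246), RNF213 (0.239), BIRC3 (0.238) and PML (0.237). Those most like APOL6 were PARP14 (0.372), RNF213 (0.345), MALAT1 (0.323), DSP (0.315) and XAF1 (0.311), beside an upper end of 0.226 for the middle 95% of all genes. PARP14, RNF213, PML and XAF1 are known interferon-induced genes, and MALAT1 is a nuclear RNA. APOL3 (9.32% of thinned cells) and APOL4 (2.47%) were under the 20% minimum of this measure. Without thinning they were seen in 50.4% and 16.0% of these cells.

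Median r values over gene lists are given beside those of all genes, which were 0.00591 for APOL1, 0.0274 for APOL2 and 0.0508 for APOL6. The guanylate-binding proteins had a median r of 0.214 with APOL1, 0.157 with APOL2 and 0.219 with APOL6 over 5 genes. The NF-κB targets had a median r of 0.156 with APOL1, 0.102 with APOL2 and 0.0805 with APOL6 over 9 genes. The interferon-γ signalling genes had 0.0576, 0.0892 and 0.149 over 12 genes. No test was made of differences between members or lists.

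Genes of interferon-γ signalling, guanylate-binding proteins and NF-κB targets were read over all kept cells. Their lists were chosen with earlier results of these data known. Beside the counts over all kept cells in this paragraph stands the share of 6.97% of all genes at least 2-fold higher in 3CK. Of 13 interferon-γ signalling genes, 11 were at least 2-fold higher in 3CK, with a median log2 ratio of 1.82. The list ran from the receptor subunit IFNGR2 (0.36) to NLRC5 (4.72), the activator of MHC class I genes. All 5 guanylate-binding protein genes were at least 2-fold higher, from GBP3 (2.02) to GBP5 (8.91), with a median of 4.76 beside 4.10 for the apolipoprotein L genes. Of 10 NF-κB targets, 8 were at least 2-fold higher, from NFKB2 (0.84) to the adhesion molecule ICAM1 (5.50), and the mitochondrial dismutase SOD2 was the most abundant at 72.9 and 913 CPM. In mesenchymal cells the medians were 0.99 for the signalling genes, 3.46 for the guanylate-binding proteins and 2.83 for the NF-κB targets. Of the 13 signalling genes, 6 were at least 2-fold higher there, beside 6.14% of all genes.

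The other components of the blood particle that carries APOL1 did not share its direction. APOA1, the main protein of high-density lipoprotein, stood at 8415 and 4259 CPM (log2 ratio -0.98), and APOA2 had a log2 ratio of -1.55. Haptoglobin (HP) stood at 3.64 and 2.59 CPM (-0.49). Haptoglobin-related protein (HPR), which is part of the trypanosome-killing particle, had 51 UMIs in the untreated library and 1 in the treated one (log2 ratio -5.53, -10.9 to -2.98). Of the 3 genes with at least 1 CPM, none was 2-fold higher, a count near the 6.97% of all genes. Only APOA2 of these was 2-fold lower, a direction for which no share of all genes was taken. Hepatic markers outside this list were also lower in 3CK: AFP stood at 5539.6 and 1719 CPM and ALB at 1116 and 339 CPM. The 6 hepatic markers, which include APOA1 and APOA2, summed to 72296 and 24776 CPM, and the part of cell makeup in these values was not tested.

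Among 6 genes whose proteins are linked to apolipoprotein L proteins, 1 was at least 2-fold higher in 3CK, a count too small to set apart from the 6.97% of all genes. This was VAMP8, a membrane fusion protein of endosomes, at 227 and 491 CPM (log2 1.11), and the lowest ratio was that of VAPB (-0.17), with a median of 0.01. Markers of cell types known for APOL1 or its relatives were read as well. The 8 endothelial markers summed to 108 CPM in CNT and 116 CPM in 3CK over all kept cells, with EGFL7 at 64.6 and 74.6 CPM, PECAM1 at 14.9 and 21.5 CPM and CDH5 at 0.719 and 0.337 CPM. The 5 podocyte markers summed to 31.9 and 59.0 CPM, with PODXL at 17.2 and 38.6 CPM, SYNPO at 13.3 and 19.5 CPM and NPHS1 at 0.246 and 0.327 CPM.

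The genes around the cluster on chromosome 22 had ratios below those of the members. Of 10 neighbours, 7 had at least 1 CPM, and none of these was 2-fold higher or lower, with a median log2 ratio of 0.02. With 6.97% of all genes at least 2-fold higher, a count of 0 among 7 is near the background, and no such share was taken for lower genes. MYH9, a non-muscle myosin heavy chain gene next to APOL1, had a log2 ratio of 0.46, and RBFOX2, between APOL6 and APOL3, had -0.04. HMOX1 (0.00), MCM5 (0.02), TXN2 (0.18), EIF3D (0.04) and FOXRED2 (-0.67) completed the list. MB, the nearest listed gene to APOL6, had 66 UMIs in CNT and 12 in 3CK (-2.31, -3.34 to -1.41), and RASD2 had 18 and 8, both under 1 CPM.

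**Figure D5:**
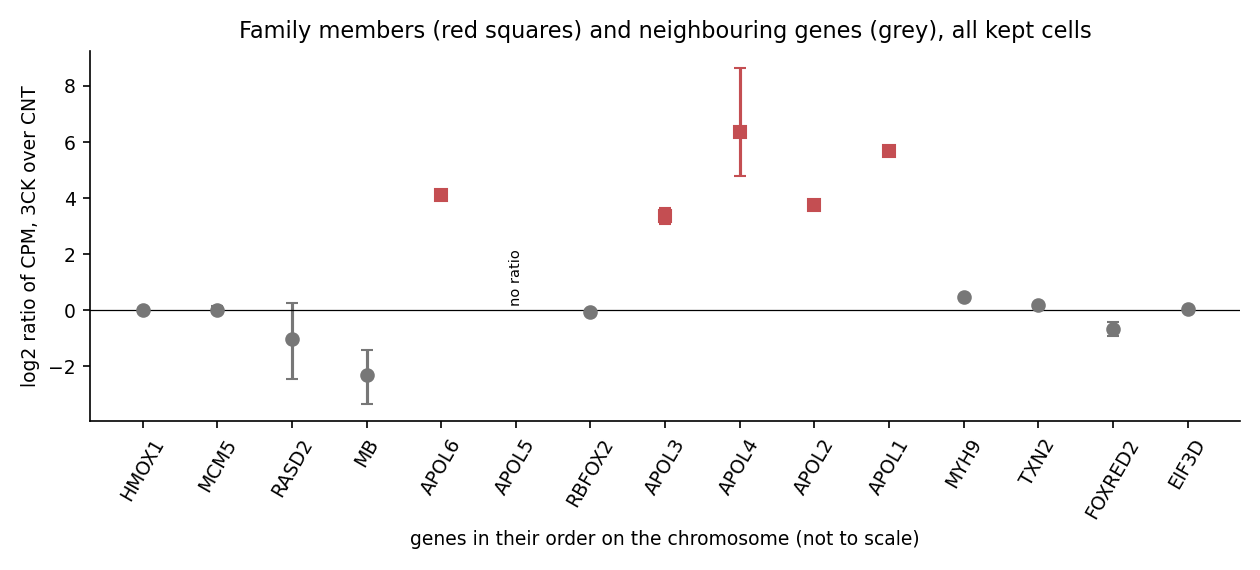
Log2 ratio of 3CK over CNT for the genes around the cluster, in their order along the chromosome, with 95% counting intervals. The 5 members lie between 3.36 and 6.37, and the neighbours with at least 1 CPM lie between -0.67 and 0.46.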

How the data were processed

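UMI counts for each gene and barcode were deposited by the authors without normalisation, made with Cell Ranger 7.1.0 on GRCh38, per the submitters' processing notes. The annotation release and the handling of introns were not given in the sources used here. Barcodes with at least 500 genes and at most 20% mitochondrial UMIs were kept, and the highest Scrublet scores (scanpy 1.11.5) were removed as doublets at 0.8% per 1000 barcodes (52 CNT, 16 3CK).

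UMIs were summed per group of cells and scaled to CPM. Levels carry exact Poisson intervals, shares Clopper-Pearson intervals, ratios one derived from the exact binomial interval for the share of 3CK, and differences of ratios a delta-method interval, all at the 95% level. PCR and capture error are not covered. A library with 0 UMIs was set to 3 UMIs, so its ratio is a bound, and none was formed with 3 UMIs or fewer in both. The log2 ratio and its interval were tested on simulated Poisson counts of genes with at least 1 CPM in CNT, a level that APOL4 did not reach. Other steps were not tested on simulated data. Positions come from GENCODE v44, matched by Ensembl ID. Named genes are the members, their relatives APOL5 and APOLD1, and of each list the most abundant gene and those with the largest and smallest ratio, all neighbours, and the 5 genes most like each member. A gene that this selection names is not reported here. HPR, single marker genes and the TTR ranges were picked with their values in view. The members and lists were chosen with earlier results of these data known. Alternatives were other filters, doublet rates, scalings (edgeR 4.0.16 TMM factors, totals without the most abundant genes), cell weights, class limits and thinning depths.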

Additional observations from a re-analysis of the deposited data

How the results depend on the processing

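The median log2 ratio of the members ranged from 4.00 to 4.18 in all kept cells, 4.19 to 4.95 in epithelial cells and 2.24 to 2.68 in mesenchymal cells over the alternatives. In epithelial cells it was 4.85 with equal weight for each cell, 4.95 with at least 5 EPCAM UMIs per 10000, and, in ranges chosen after seeing the data, 4.45 in TTR-high and 4.19 in TTR-low cells. In mesenchymal cells it was 2.24 with at least 20 collagen UMIs per 10000. All 5 members were at least 2-fold higher in 3CK under each alternative in all kept and in epithelial cells. In mesenchymal cells 4 were under equal weight, where APOL4 gives no value since CNT is at 0, and 5 under the others. Of 131 alternative ratios of single members (without APOL4 in mesenchymal cells, a bound), 118 lay within the counting interval of the reported value, 13 moved beyond it and 0 changed direction. Of 99 ratios between the classes, 75 lay within it, 22 moved and 2 changed sign. Within 3CK, the number of members higher in mesenchymal cells was 1, and 3 against TTR-high epithelium, where APOL4 (0.52) and APOL6 (0.10) changed sign. TMM scaling shifted the ratios by 0.09 in all kept, 0.02 in epithelial and 0.17 in mesenchymal cells, and mesenchymal over epithelial ratios by -0.40 in CNT and -0.18 in 3CK. Shares of cells depend on the thinning depth. No paired analysis was possible because each group has 1 library, and for the same reason no replicate could be left out. APOL4 in CNT, with 3 UMIs, is limited by depth.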
